A study of Mus musculus with 12 samples.

Results

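The PYHIN genes, also called the Ifi200 family, form a cluster of interferon-inducible genes on mouse chromosome 1, in the region to which the lupus susceptibility locus Sle1 has been mapped. The 10 genes described here (Ifi202b, Ifi203, Ifi204, Ifi206, Ifi207, Ifi209, Ifi211, Ifi213, Mndal and Aim2) were taken by name from the 35275 genes of the deposited expression table, with no threshold on their measured values. Another 4 family genes in the table, Ifi205, Ifi208, Ifi214 and the pseudogene Ifi203-ps, are given beside them. Messenger RNA was sequenced from purified CD4+ T cells of 12 female mice aged 9 to 12 weeks, 1 library per mouse and 3 mice in each of 4 groups. B6 mice (C57BL/6 in the labels, C57BL/6J in the study's methods) were either untreated or given anti-CD45RB (clone MB23G2), a monoclonal antibody that binds the RB isoform of the leukocyte phosphatase CD45, at 100 µg in 5 injections between day 0 and day 7. SLE123 mice (B6.NZMSle1/Sle2/Sle3), a triple congenic lupus strain that carries the intervals Sle1, Sle2 and Sle3 of the lupus-prone NZM2410 strain on the B6 background, were untreated or received the same antibody. Untreated mice carried no treatment label, so an injection without antibody was not part of the comparison, and a strain difference cannot be assigned to any single interval.

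PYHIN proteins pair an N-terminal pyrin domain, which binds other pyrin proteins, with 1 or more C-terminal HIN domains, which bind DNA. Aim2 senses double-stranded DNA in the cytosol and recruits the adaptor Pycard and the protease Casp1 into an inflammasome, whereas Ifi204 (p204) acts in DNA sensing upstream of Sting. Ifi202b lacks a pyrin domain, opposes Aim2 and has long been studied as a lupus candidate gene. Type I interferon induces much of the family, and the genes arose by tandem duplication, so that several are near copies of their neighbours.

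The 14 family genes of the table spanned 681 kb, from Aim2 at chr1:173350879-173466040 on the plus strand to Ifi205 at chr1:174031810 on its far side (GRCm38, GENCODE M21). In order along the chromosome they were Aim2, Ifi206, Ifi214, Ifi213, Ifi209, Ifi208, Ifi207, Ifi204, Ifi203-ps, Mndal, Ifi211, Ifi203, Ifi202b and Ifi205. RefSeq promoters (GRCm38.p6) were matched for 9 of the 10 listed genes and 12 family genes in all. A pair of GAAA separated by any 2 bases, the repeat at the core of the interferon-stimulated response element, was searched on both strands in the 250 bases before each start. It was found for 6 of the 9 listed genes and 9 of the 12 family genes, compared with 2.98% of the 32851 promoters in the table. A gene counted if any of its starts matched, whereas that share is over single promoters. Several family promoters are near copies of each other, as given below, so their matches are not independent. The letters TTCNNNGAA, the form of a gamma-activated site, were found for 1 of the 9 (Ifi202b), compared with 7.02% of all promoters. The following stretches are shown because Ifi206, Ifi214, Ifi213, Ifi209 and Ifi208 are the 5 neighbours whose RNA was lower in untreated SLE123 mice, while Ifi211 was the gene with the largest increase and Ifi203 did not pass the test; the match is in capitals, all are read 5′ to 3′ on the gene's own strand, and none overlaps an exon of a cluster gene.
Ifi206, chr1:173491324-173491383, minus strand: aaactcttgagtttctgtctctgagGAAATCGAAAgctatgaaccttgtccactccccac
Ifi214, chr1:173536002-173536061, minus strand: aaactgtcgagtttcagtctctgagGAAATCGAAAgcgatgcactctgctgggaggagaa
Ifi213, chr1:173599311-173599370, minus strand: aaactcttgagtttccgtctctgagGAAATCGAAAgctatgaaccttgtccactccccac
Ifi209, chr1:173630755-173630814, plus strand: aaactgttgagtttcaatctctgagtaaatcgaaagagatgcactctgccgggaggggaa
Ifi208, chr1:173673582-173673641, plus strand: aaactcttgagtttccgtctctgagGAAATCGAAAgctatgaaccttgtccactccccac
Ifi211, chr1:173913049-173913108, minus strand: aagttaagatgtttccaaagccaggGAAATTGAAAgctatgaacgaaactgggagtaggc
Ifi203, chr1:173942493-173942552, minus strand: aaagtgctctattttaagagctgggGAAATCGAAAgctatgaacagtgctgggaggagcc
The stretches of Ifi213 and Ifi208 were identical, and that of Ifi209, which aligned with the stretch of Ifi214, held no match. Over the 250 bases, Ifi214 and Ifi209 were 94.4% identical, and Mndal (first start) and Ifi203 (second start) 89.3%. Ifi213 and Ifi208 were 87.9% identical and Ifi206 and Ifi208 86.2%, against a median of 50.9% over all 91 pairs of starts. A match in these letters describes the sequence and not a bound site.

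Near copies limit how far reads can be assigned. Of all 100-base windows in the annotated transcripts of Ifi211, 56.9% also occurred in another gene, most often Ifi205 (37.2%), and 9.56% of the windows of Ifi204 occurred in Ifi211. The share was 16.9% for Ifi209, all of it with Ifi214, and 13.1% for Ifi206. It was 6.38% or less for Mndal, Ifi213, Ifi203 and Ifi207, and 0 for Aim2 and Ifi202b. Of the shorter 50-base windows of Aim2, 0.742% also occurred in another gene. The values of Ifi211 could include reads of Ifi205 or Ifi204. The transcripts compared are those of the B6 reference, and reads from NZM2410 alleles that differ from it may map less often in SLE123 mice; the part of this in the strain differences was not tested.

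**Figure D1:**
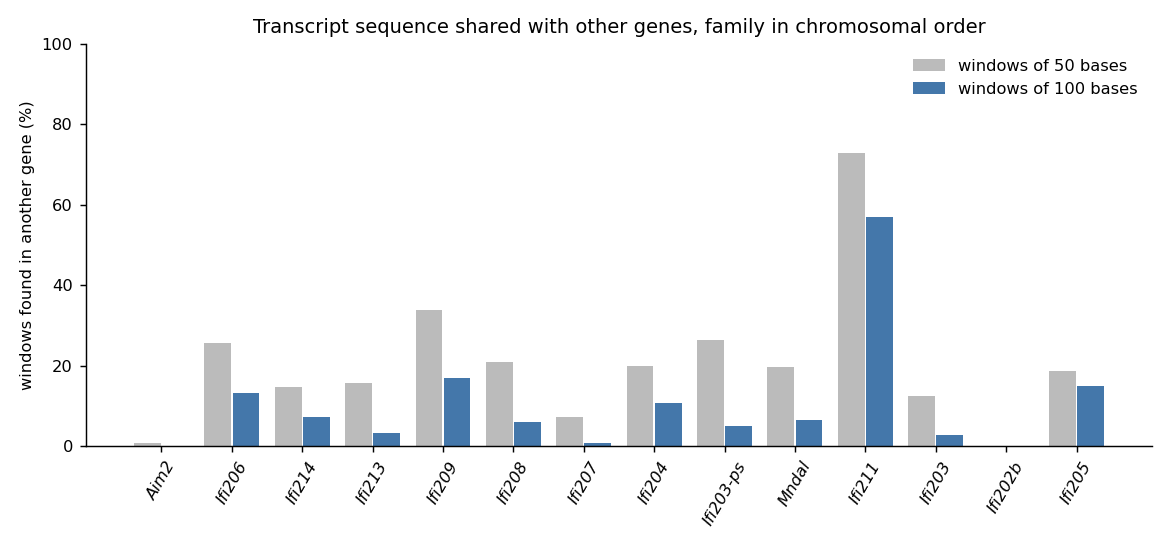
Percentage of the 50-base (grey) and 100-base (blue) windows of each gene's annotated transcripts that also occur in transcripts of another gene, for the 14 family genes in chromosomal order. Ifi211 stands highest at 56.9% of its 100-base windows, and Ifi202b and Aim2 have none at that length.

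Values are FPKM, fragments scaled to the length of the transcript and to the size of the library. They turned out to be whole multiples of what a single fragment is worth, from which the number of fragments per gene was worked out. The libraries held 13563594 to 23642949 fragments. In the marker check, the 10 T cell genes summed to 2672 to 3589 FPKM in all libraries, with Cd3e and Cd4 abundant throughout. Markers of other cells moved with the groups. The 9 B cell markers summed to 6.50 to 7.94 FPKM in untreated B6, 27.2 to 35.8 in treated B6, 64.6 to 240 in untreated SLE123 and 38.3 to 58.2 in treated SLE123 mice. In the same order, the 6 plasma cell markers summed to 57.4 to 77.0, 93.0 to 195, 1949 to 5037 and 1048 to 1920 FPKM. Immunoglobulin genes took 0.0895 to 0.336% of fragments in B6 and 2.51 to 12.2% in SLE123 libraries. The 11 myeloid markers summed to 16.6 to 24.3 FPKM in untreated B6 mice, 88.3 to 153 in treated B6, 76.0 to 151 in untreated SLE123 and 62.6 to 82.7 in treated SLE123, and no marker of that list was at 0 in all libraries of a group. In the same order of groups, the 8 dendritic cell markers summed to 45.1 to 54.7, 71.6 to 94.3, 99.8 to 153 and 139 to 145 FPKM. Most of that sum was Bst2, also counted below as an interferon-stimulated gene (43.9 to 52.8, 61.2 to 82.4, 96.6 to 150 and 136 to 143 FPKM). Itgax, Flt3, Siglech, Clec9a and Cd209a were instead highest in treated B6 mice, where Zbtb46 and Xcr1 overlapped with SLE123 mice. The 5 NK cell markers summed to 46.1 to 50.6, 96.7 to 119, 51.8 to 66.3 and 67.9 to 78.1 FPKM, and the 7 erythroid and platelet markers to 3.83 to 5.03, 20.8 to 22.2, 32.3 to 52.6 and 7.32 to 19.8 FPKM. The 7 liver genes summed to 41.5 to 49.1 FPKM in the 6 B6 libraries and 46.5 in SLE123 anti-CD45RB replicate 1, but to 0.368 or less in the other 5 SLE123 libraries, so that in untreated mice strain and liver RNA cannot be told apart. In bulk RNA, fewer cells of a type and less RNA per cell cannot be told apart.

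In untreated B6 mice the family divided into abundant and nearly silent genes. Mndal was the most abundant, at 174 ± 6.92 FPKM (SD, n = 3), followed by Ifi203 at 104 ± 7.07. Ifi206 (85.0 ± 5.20), Ifi209 (84.9 ± 5.22) and Ifi213 (79.2 ± 5.90) came next and did not differ from each other beyond their spread, and Ifi208 stood just under them at 70.1 ± 3.86. Aim2 followed at 18.1 ± 1.62 and Ifi214 at 15.5 ± 1.24, with no overlap between them. Ifi211 (0.323 ± 0.229) and Ifi204 (0.276 ± 0.120) were below 1 FPKM and did not differ beyond their spread, and Ifi207 was at 0.0899 ± 0.0481. These levels are per length of transcript, and the 14 genes together summed to 453 to 685 FPKM in each library, of which Mndal made up 26.7 to 35.8%.

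Ifi202b was listed at 0 in all 12 libraries. With the annotated exon length, 3 fragments would have given 0.0748 to 0.130 FPKM, so the counts of 0 limit its level to about that value in every mouse, as far as counting error goes. No 50-base window of its annotated transcript occurs in another gene. An exact 0 in such a table can also come from the annotation or the counting. Of 79 ribosomal protein genes, 1 was likewise listed at 0 in all libraries, but whether that gene is silent in these cells was not tested. No strain or treatment difference could therefore be examined for Ifi202b.

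**Figure D2:**
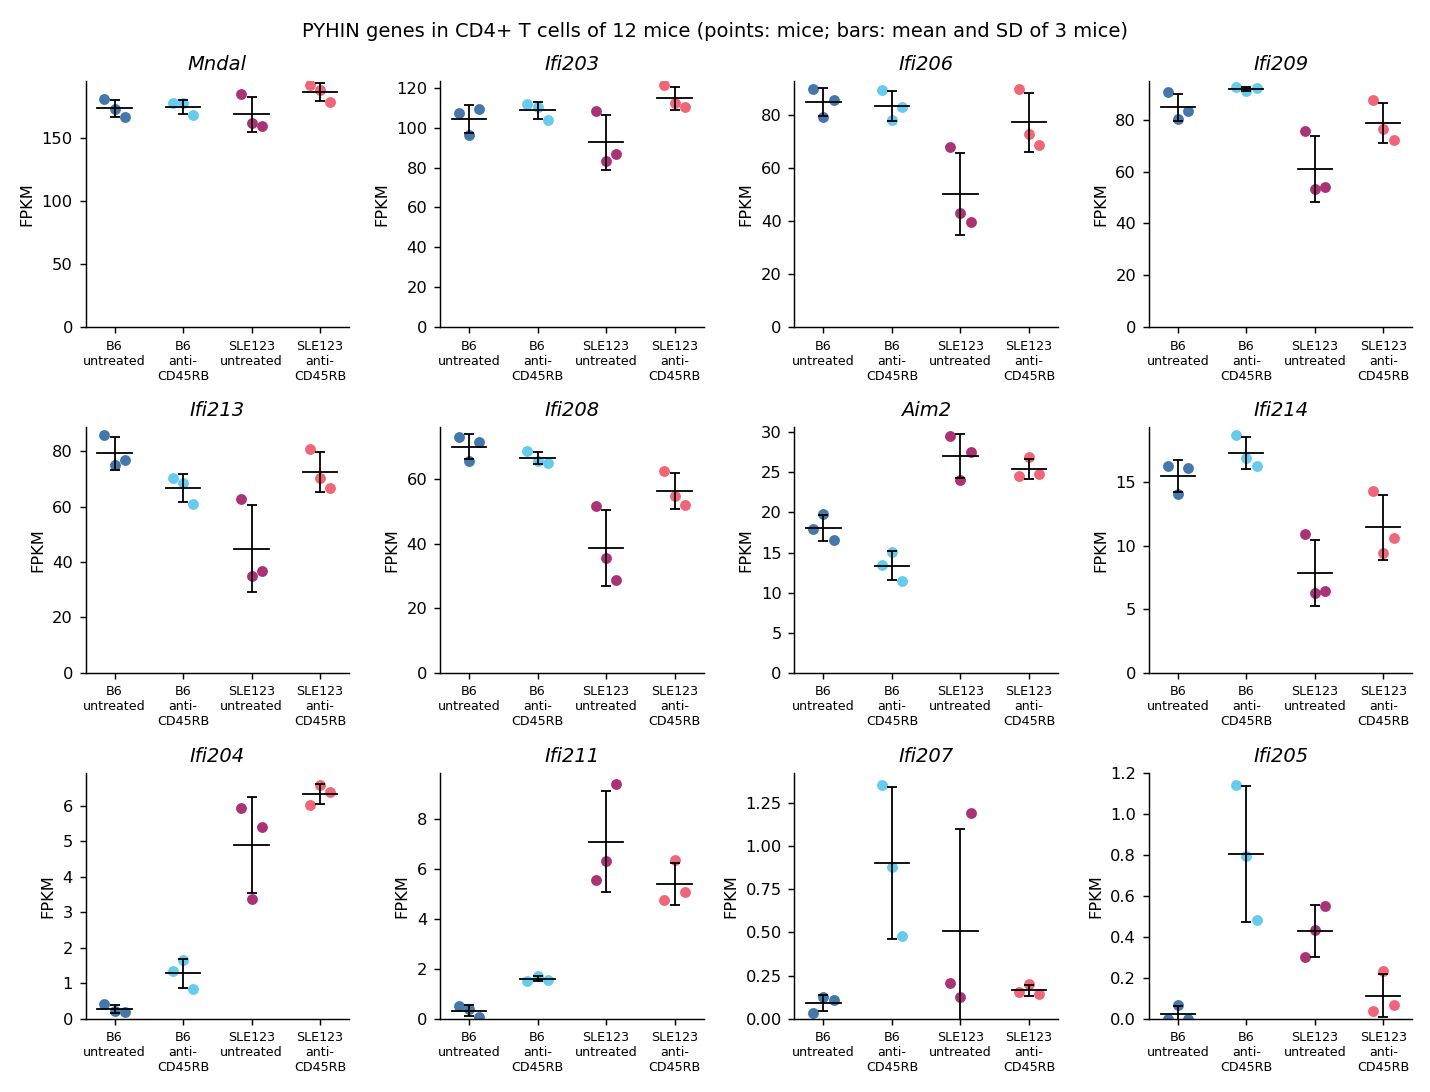
FPKM of 12 PYHIN genes (y axis, each from 0) in the 4 groups of 3 mice (x axis); points are mice in replicate order, and bars are the mean with the SD, which for Ifi207 and Ifi205 is cut at 0. Ifi204 and Ifi211 are higher in every SLE123 mouse than in any B6 mouse, and in untreated SLE123 mice replicate 1 lies above replicates 2 and 3 for Ifi206, Ifi209, Ifi213, Ifi208 and Ifi214.

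The first question was how the family differed between the strains without treatment. Ifi211 and Ifi204 were many times higher in SLE123 than in B6 CD4+ T cells, Aim2 was moderately higher, and Ifi206, Ifi213 and Ifi209 were lower. Of the 10 genes, 8 reached the mean of 0.5 FPKM needed for testing, and 6 of these were called, 3 higher and 3 lower (limma on log2(FPKM + 1), adjusted p under 0.05). Ifi204 and Ifi211 reached that mean through mice other than the untreated B6 mice, so that their counts here are a description and no support. Over all 13115 genes tested, 42.9% were called in this comparison (22.8% higher and 20.1% lower), so a call in itself does not set a family gene apart. The share of all genes whose groups did not overlap was not counted in any comparison. A lack of overlap, given below for several genes, therefore does not set them apart either. With TPM scaling, which sets the same sum of per-length values in each library, the split was 2 higher and 5 lower (60.2% of all genes called) and with quantile normalization 3 and 5 (52.8%), since Ifi203 and Mndal were then called lower.

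Ifi204, the p204 DNA sensor, stood at 0.413, 0.221 and 0.193 FPKM in untreated B6 mice and at 5.94, 3.37 and 5.41 FPKM in untreated SLE123 mice. The groups did not overlap, and the lowest SLE123 mouse was far above the highest B6 mouse. The difference was 2.19 ± 0.19 (SE) on the log2(FPKM + 1) scale (limma, adjusted p = 0.00016), and the group means differed 17.8-fold. Behind the values were 7 to 15 fragments per B6 library and 142 to 288 per SLE123 library.

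Ifi211 stood at 0.526, 0.368 and 0.0753 FPKM in untreated B6 mice and at 5.53, 6.32 and 9.38 FPKM in untreated SLE123 mice. Again the groups were far apart, with 2 to 14 fragments per B6 library and 151 to 366 per SLE123 library. The log2(FPKM + 1) difference of 2.60 ± 0.21 (limma, adjusted p = 0.000114) was the largest of the family. The ratio of means was 21.9, although it rests on few fragments in B6. At 313th in size among the 13115 genes, it lay at the 97.7th percentile of signed differences.

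Aim2, whose transcript shares no 100-base window with another gene, stood at 17.9, 19.8 and 16.6 FPKM in untreated B6 mice and at 29.5, 24.1 and 27.5 in untreated SLE123 mice. The groups did not overlap, and the mean was 1.49-fold higher in SLE123 (difference 0.55 ± 0.10 on the log2(FPKM + 1) scale; limma, adjusted p = 0.00502). Rescaling the values to TPM, which took the median of all genes in this comparison from -0.03 to -0.34, left Aim2 at 0.19 (adjusted p = 0.312), or 0.53 above the median under TPM; over all alternatives its adjusted p ranged from 0.000953 to 0.312.

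Ifi206 stood at 89.9, 79.5 and 85.7 FPKM in untreated B6 mice and at 68.3, 43.1 and 39.6 FPKM in untreated SLE123 mice. Ifi213 stood at 86.0, 75.0 and 76.8 FPKM in the former and at 62.8, 35.0 and 36.7 in the latter. Ifi209 stood at 90.7, 80.5 and 83.5 FPKM in the former and at 75.7, 53.3 and 54.0 in the latter. None of these groups overlapped, but SLE123 replicate 1 was each time much nearer to the B6 mice than replicates 2 and 3 were. On the log2(FPKM + 1) scale Ifi213 fell by 0.86 ± 0.21 (limma, adjusted p = 0.0152), Ifi206 by 0.79 ± 0.19 (adjusted p = 0.0149) and Ifi209 by 0.49 ± 0.14 (adjusted p = 0.0287).

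The other family genes of this stretch, Ifi214 and Ifi208, were also called lower, by 0.93 ± 0.19 and 0.88 ± 0.19 on the same scale (adjusted p = 0.0074 and 0.0097). All 5 neighbouring genes from Ifi206 to Ifi208 were thus lower in untreated SLE123 mice, while Aim2 on 1 side of them was higher. Beyond them, Ifi203 (83.1 to 108 FPKM in SLE123, 96.3 to 109.5 in B6) and Mndal (160.0 to 185 and 167 to 181 FPKM) overlapped between the strains and were not called (limma, adjusted p = 0.263 and 0.730). Over the 6 fits that each omitted a mouse, Ifi209 lost its call in 5 of 6 fits and Ifi206 and Ifi213 in 2 of 6 each, while Ifi204, Ifi211, Aim2, Ifi208 and Ifi214 kept theirs in all 6.

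**Figure D3:**
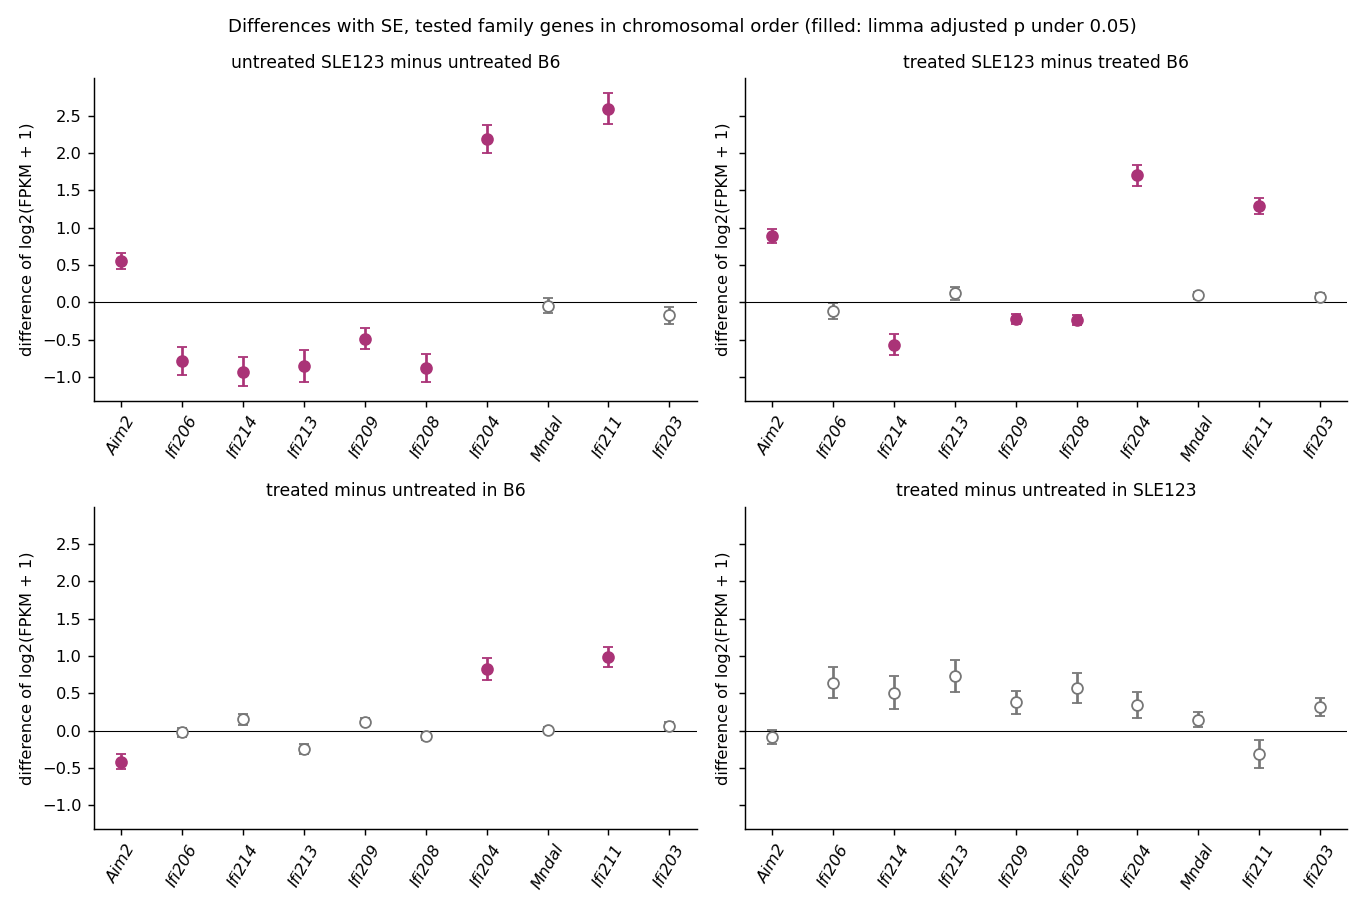
Difference of log2(FPKM + 1) with its SE (y axis) for the 10 tested family genes in chromosomal order (x axis), in 4 comparisons; filled red points have a limma adjusted p under 0.05 and open grey points do not. In the untreated strains the neighbours from Ifi206 to Ifi208 all lie below 0 and Ifi204 and Ifi211 lie above 2, and in SLE123 mice no treatment difference is filled.

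The same strain comparison in treated mice uses none of the same samples. Ifi204, Ifi211 and Aim2 were again higher in SLE123 than in B6, whereas Ifi206 and Ifi213 no longer differed detectably. Of the 8 genes tested, 4 were called, 3 higher and 1 lower, beside 52.1% of all genes tested (29.6% higher and 22.5% lower). Scaled to the fragments outside immunoglobulin genes, 5 were higher and 1 lower, with Ifi203 and Mndal added, beside 53.3% of all genes. Treated B6 mice had Ifi204 at 1.34, 1.65 and 0.844 FPKM, and treated SLE123 mice at 6.01, 6.57 and 6.39 FPKM. Ifi211 stood at 1.52, 1.70 and 1.55 FPKM in the former and at 4.75, 6.33 and 5.05 FPKM in the latter. The groups did not overlap for either gene, and the differences were 1.70 ± 0.14 for Ifi204 and 1.29 ± 0.11 for Ifi211 on the log2(FPKM + 1) scale (limma, adjusted p = 0.000132 and 0.00014).

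Aim2 stood at 13.4, 15.1 and 11.5 FPKM in treated B6 mice and at 24.6, 26.9 and 24.8 FPKM in treated SLE123 mice. With no overlap, its difference of 0.89 ± 0.09 on the log2(FPKM + 1) scale (limma, adjusted p = 0.000379) corresponded to a 1.91-fold higher mean, and it stayed past the threshold under all 17 alternatives. Ifi209 was lower by 0.23 ± 0.07 (adjusted p = 0.0300), and 5 of the 6 fits without a mouse lost that call. Ifi214 was lower by 0.57 ± 0.14 and Ifi208 by 0.24 ± 0.07 (adjusted p = 0.0131 and 0.0278), the latter lost in 5 of 6 such fits. Ifi206, at 69.0 to 90.1 FPKM in SLE123 and 78.2 to 89.5 in B6, overlapped and was not called, but without SLE123 anti-CD45RB replicate 1, the SLE123 library with liver transcripts at the B6 level, it was called lower by 0.23 (adjusted p = 0.0254, 0.0254 to 0.767 over its alternatives), beside 51.0% of all genes called.

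The next question was whether anti-CD45RB altered the family in B6 mice. Ifi211 and Ifi204 rose from nearly silent levels, Aim2 fell, and the abundant genes Mndal, Ifi203 and Ifi206 showed differences below 0.1. This comparison shares its untreated B6 mice with the first. Of 8 genes tested, 3 were called, 2 higher and 1 lower, beside 14.9% of all genes (8.74% higher and 6.12% lower). The 2 higher genes, Ifi211 and Ifi204, reached the mean for testing through mice other than the untreated B6 mice. From levels below 1 FPKM they also had little room to fall, so their calls here are a description and no support. With quantile normalization or without immunoglobulin fragments, Ifi213 was also called lower, beside 15.6% and 16.4% of all genes called. Ifi211 rose from 0.0753 to 0.526 FPKM in untreated mice to 1.52 to 1.70 in treated mice, by 0.98 ± 0.14 on the log2(FPKM + 1) scale (limma, adjusted p = 0.00676). Ifi204 rose from 0.193 to 0.413 to 0.844 to 1.65 FPKM, by 0.83 ± 0.15 (adjusted p = 0.0160). Neither pair of groups overlapped, and the means differed 4.92-fold and 4.65-fold. The call of Ifi204 was lost without B6 untreated replicate 4 (adjusted p = 0.0664; 0.00482 to 0.160 over its alternatives).

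Aim2 fell from 16.6 to 19.8 FPKM in untreated B6 mice to 11.5 to 15.1 in treated ones, by 0.42 ± 0.10 on the log2(FPKM + 1) scale (limma, adjusted p = 0.0418). The groups did not overlap, but the call was near the threshold and was lost in 5 of the 6 fits that left out a mouse. Ifi213 stood at 70.5, 68.7 and 60.8 FPKM in treated and at 86.0, 75.0 and 76.8 in untreated B6 mice. These groups did not overlap either, yet the difference of -0.25 ± 0.07 was not called (adjusted p = 0.0632).

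Ifi207 was below the limit for testing but varied widely. It stood at 0.0356, 0.127 and 0.107 FPKM in untreated B6 mice, 1.36, 0.877 and 0.478 in treated B6, 0.209, 0.123 and 1.19 in untreated SLE123 and 0.154, 0.198 and 0.141 in treated SLE123. It was therefore high in all 3 treated B6 mice and in a single untreated SLE123 mouse, replicate 3. Its fragments numbered 2 to 8 in untreated B6 libraries and 28 to 64 in treated B6 libraries. With all genes above 0 tested, the treatment difference in B6 was 0.78 ± 0.18 on the log2(FPKM + 1) scale (limma, adjusted p = 0.0904), and Ifi207 was called lower in treated SLE123 than in treated B6 mice, by 0.68 ± 0.18 (adjusted p = 0.0463), beside 29.2% of all genes above 0. Ifi205, also below the limit, stood at 0 to 0.0686 FPKM in untreated B6, 0.479 to 1.14 in treated B6, 0.300 to 0.551 in untreated SLE123 and 0.0368 to 0.230 in treated SLE123 mice. In the same fits it was called higher in SLE123 without treatment, by 0.48 ± 0.07 (adjusted p = 0.0119; 24.5% of all genes above 0 called), and lower in SLE123 with treatment, by 0.69 ± 0.16 (adjusted p = 0.0318).

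Transcripts of several other cell types also differed between the groups, only in part in the same direction as the low genes. With treatment in B6, 7 of 9 myeloid, 6 of 7 B cell and 5 of 6 dendritic cell markers tested were called higher. So were 4 of 5 NK cell, 5 of 6 erythroid and platelet and 2 of 6 plasma cell markers, beside 8.74% of all genes tested. Lyz2, the lysozyme of macrophages and neutrophils, stood at 6.41, 1.66 and 3.14 FPKM in untreated B6 mice and at 94.7, 30.1 and 27.7 in treated B6 mice. It stood at 23.4, 21.1 and 46.3 FPKM in untreated SLE123 mice and at 16.8, 12.7 and 10.6 in treated SLE123 mice. The library with the highest Lyz2 in each strain, B6 anti-CD45RB replicate 1 and SLE123 untreated replicate 3, was also the highest for Ifi207 in its strain. In untreated SLE123 against untreated B6 mice, 7 of 9 myeloid, 7 of 7 B cell and 6 of 6 plasma cell markers were called higher. Of 6 dendritic cell markers 2 were called higher and 0 lower, of 5 NK cell markers 1 and 1, and of 6 erythroid and platelet markers 5 and 0. Over all genes tested, 22.8% were called higher and 20.1% lower in this comparison. In treated SLE123 against treated B6 mice, none of the 9 myeloid markers was called higher and 4 were called lower. Ifi204 and Ifi211 were called higher there, and Ifi207 and Ifi205 lower with all genes above 0 tested. All 6 plasma cell markers were called higher there, and of 7 B cell markers 3 were higher and 3 lower. Of 6 dendritic cell markers 1 was called higher and 3 lower, and of 5 NK cell markers 1 and 4. Of 6 erythroid and platelet markers 0 were called higher and 3 lower. Over all genes tested, 29.6% were called higher and 22.5% lower between the treated strains. The part of RNA from these cells in the strain and treatment differences of Ifi211, Ifi204, Ifi207 and Ifi205 was not tested. Nor was it tested for Aim2, the other family genes or the genes outside the family described below.

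**Figure D4:**
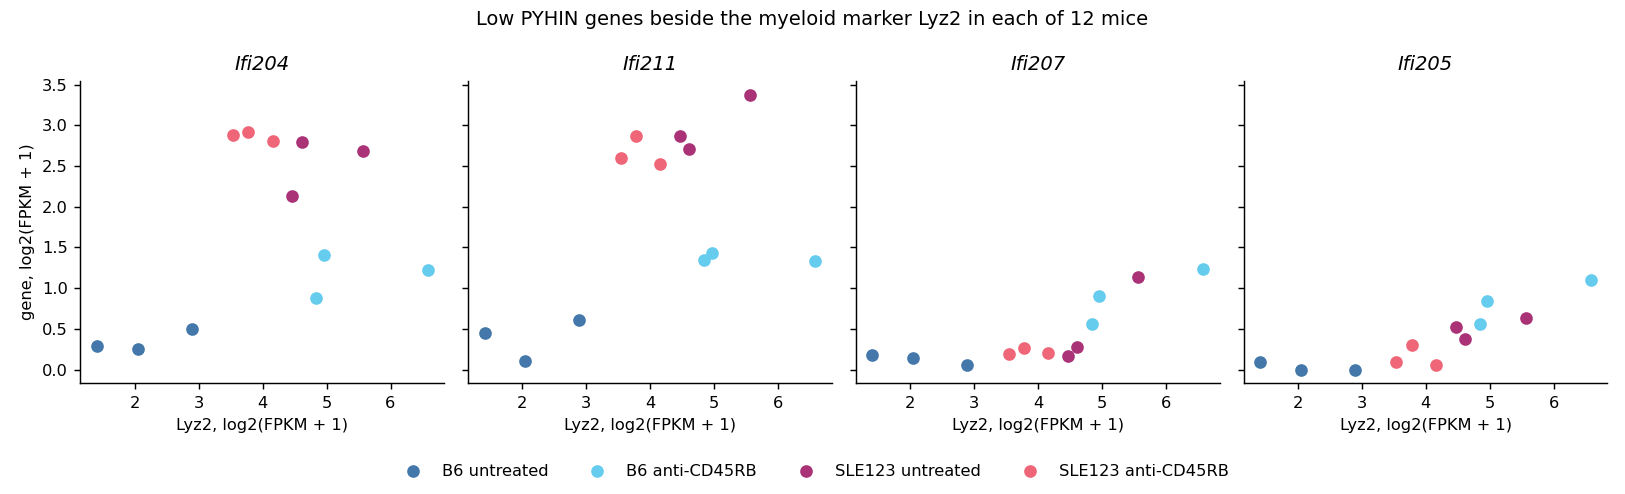
Ifi204, Ifi211, Ifi207 and Ifi205 (y axis, log2(FPKM + 1)) against the myeloid marker Lyz2 (x axis, log2(FPKM + 1)) in each of the 12 mice, coloured by group. The 6 SLE123 mice lie above the 6 B6 mice for Ifi204 and Ifi211, treated B6 mice reach 94.7 FPKM of Lyz2, and Ifi207 is highest in the libraries with the most Lyz2 in both strains.

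In SLE123 mice the treatment comparison gave no call among the 8 genes tested (limma), beside 0.0381% of all genes. At an unadjusted p under 0.05 there were 4 of the 8, Ifi206, Ifi203, Ifi209 and Ifi213, beside 10.4% of all genes. Limma-voom on the recovered fragments also called 0 of the 8, beside 0.0229% of all genes. Ifi213 stood at 62.8, 35.0 and 36.7 FPKM in untreated and at 80.8, 70.2 and 66.9 in treated SLE123 mice. Ifi206 stood at 68.3, 43.1 and 39.6 FPKM in the former and at 90.1, 73.0 and 69.0 in the latter. The groups did not overlap for either gene, but untreated replicate 1 came close to the treated mice. The differences were 0.73 ± 0.22 for Ifi213 and 0.64 ± 0.21 for Ifi206 on the log2(FPKM + 1) scale (limma, adjusted p = 0.449 and 0.465). Ifi204 (3.37 to 5.94 FPKM untreated, 6.01 to 6.57 treated) and Ifi211 (5.53 to 9.38 and 4.75 to 6.33) were not called either.

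Whether treatment acted differently in the strains was tested by the interaction in a fit to all 12 mice. Of 8 genes, 1 was called, in the lower direction, beside 3.64% of all genes (2.38% lower). Ifi211 had a treatment effect of 0.98 in B6 and -0.32 in SLE123, an interaction of -1.30 ± 0.25 on the log2(FPKM + 1) scale (limma, adjusted p = 0.0179), which was lost without SLE123 anti-CD45RB replicate 3 (adjusted p = 0.0513; 0.00497 to 0.136 over its alternatives). Ifi211 was nearly silent in untreated B6 mice and reached the mean for testing through other mice. Its call here is therefore a description and no support. Ifi213 had effects of -0.25 in B6 and 0.73 in SLE123, an interaction of 0.98 ± 0.25 (adjusted p = 0.0581). With all genes above 0 tested, of which 1.79% were called, Ifi205 had an interaction of -1.17 ± 0.17 (adjusted p = 0.0127). Of the 12 fits that each left out a mouse, the fit without SLE123 untreated replicate 1 moved this count most. Without it 5 members were called, Ifi211 lower and Ifi203, Ifi206, Ifi209 and Ifi213 higher, with Ifi213 at 1.24 (adjusted p = 0.000909; 0.000909 to 0.133 over its alternatives); 2917 of all genes tested (22.2%) were then called, where 478 had been.

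Interferon-stimulated genes outside the family were read beside it. Of 34 such genes, all tested, 16 were called higher and 5 lower in untreated SLE123 than in untreated B6, where 42.9% of all genes were called (median difference 0.34, beside -0.03 over all genes). Oas1a (1.45), Isg20 (1.68) and Bst2 (1.31) were higher and Irf7, the factor that amplifies type I interferon, was lower (-0.57) on the log2(FPKM + 1) scale (limma, adjusted p from 0.000247 to 0.00126). In treated mice 22 were called higher and 1 lower in SLE123, beside 52.1% of all genes (median 0.42), among them Isg20 (1.57), Gbp2 (1.05) and Ifih1 (0.86). With treatment in B6, 12 were called higher and none lower, beside 14.9% of all genes (median 0.27; differences from -0.17 to 0.68), among them Usp18 (0.68), Ifi27l2a (0.62), Oas3 (0.60) and Cmpk2 (0.58). In SLE123 none of the 34 was called with treatment (limma, median 0.43), beside 0.0381% of all genes. At an unadjusted p under 0.05 there were 29, beside 10.4% of all genes. Gbp2, Oas2, Oas3 and Stat2 had differences of 0.55, 1.05, 0.65 and 0.57 in SLE123. Both treatment medians were above those of the PYHIN members tested, 0.03 in B6 and 0.33 in SLE123.

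**Figure D5:**
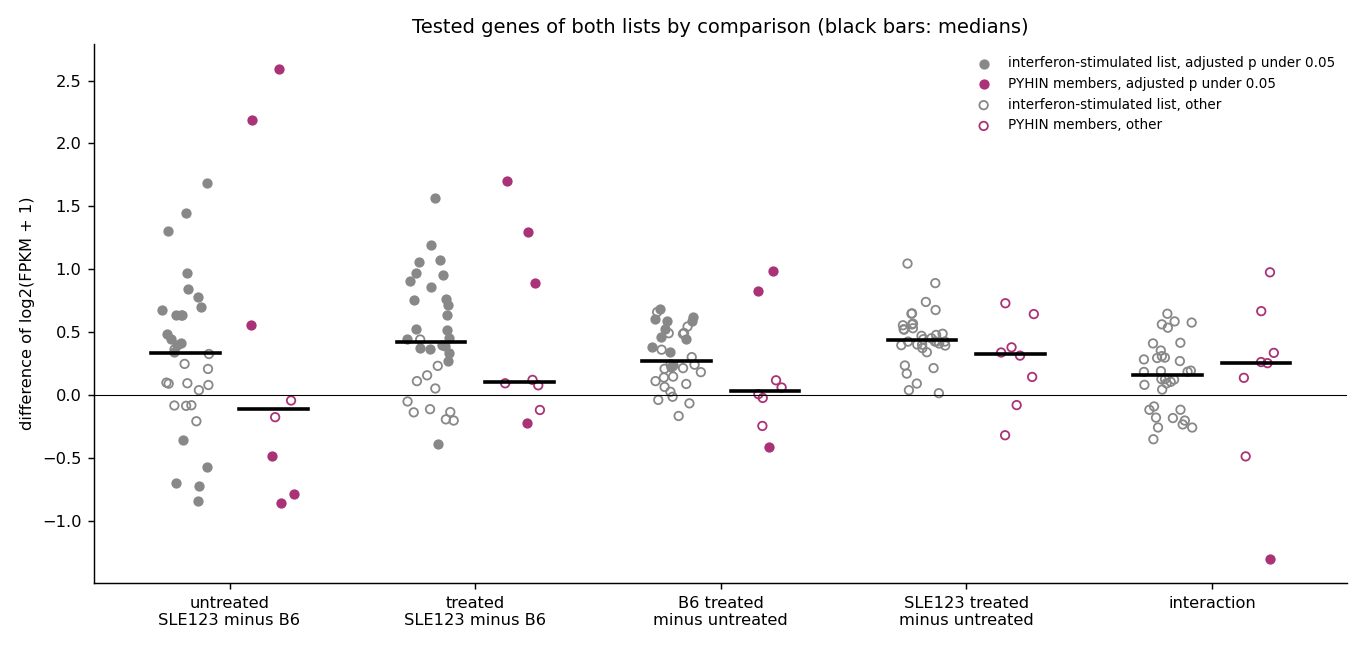
Difference of log2(FPKM + 1) (y axis) for the 34 interferon-stimulated genes (grey) and the 8 tested PYHIN members (red) in the 5 comparisons (x axis); filled points have a limma adjusted p under 0.05 and black bars are medians. In the untreated strains the median of the interferon-stimulated genes is 0.34 and that of the PYHIN members -0.11, with members on both sides of 0.

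Partners of Aim2 and of the DNA-sensing route formed a further list. Of 19 tested, 6 were called higher and 3 lower in untreated SLE123 than in untreated B6, beside 42.9% of all genes, and 9 higher and 4 lower in treated mice, beside 52.1%. The inflammatory caspases Casp4 (2.65 untreated, 2.40 treated) and Casp1 (2.48 and 1.89) were higher in both, and Irf3, a factor downstream of Sting, was lower in both (-0.57 and -0.50). The mean of Casp1 was 7.68 FPKM in untreated B6 and 47.6 in untreated SLE123 mice. Il18, a cytokine cleaved by Casp1, was also called higher in both (1.77 and 0.93; limma, adjusted p = 0.000538 and 0.0139). Zbp1, a nucleic acid sensor, was called higher in treated mice (0.59, adjusted p = 0.000225) and had a difference of 0.20 in untreated mice (adjusted p = 0.123). Treatment in B6 gave 1 call of 19, Samhd1 (0.27; limma, adjusted p = 0.00714), beside 14.9% of all genes. Treatment in SLE123 gave 0, beside 0.0381% of all genes, with 3 at an unadjusted p under 0.05, beside 10.4%.

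Of 10 interferon receptor and signalling genes tested, 2 were called higher and 4 lower in untreated SLE123 than in untreated B6, beside 42.9% of all genes, and 5 higher and 4 lower in treated mice, beside 52.1%. Ifng was higher (1.21 untreated, 0.74 treated) as was Socs1, an inhibitor of Jak signalling (0.68 and 0.65), whereas the receptor chain Ifngr2 was lower (-1.10 and -1.07). Ifnar1, a chain of the type I interferon receptor, was also lower in both (-0.58 and -0.32). Jak2 was called higher in treated SLE123 (0.35) and had a difference of 0.16 without treatment (limma, adjusted p = 0.234). With treatment, Ifng alone was called in B6 (0.40; limma, adjusted p = 0.0227), beside 14.9% of all genes. None was called in SLE123, beside 0.0381% of all genes, with 2 at an unadjusted p under 0.05, beside 10.4%.

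The tested genes on either side of the cluster were Fcer1a, which encodes a chain of the IgE receptor of mast cells and basophils, and Fh1, a fumarate hydratase. Fcer1a stood at 0.0539 to 0.121 FPKM in untreated B6 mice and at 3.67 to 5.53 in untreated SLE123 mice, with no overlap (difference 2.28 ± 0.15 on the log2(FPKM + 1) scale; limma, adjusted p = 4.46e-05). In treated mice its strain difference was 0.41 ± 0.25 (adjusted p = 0.214). It was called higher with treatment in B6, by 1.19 ± 0.24 (adjusted p = 0.0228). Fcer1a reached the mean for testing through mice other than the untreated B6 mice. Its calls against those mice are therefore a description and no support. Fh1 was higher in SLE123 by 0.38 ± 0.08 in untreated and 0.60 ± 0.06 in treated mice (adjusted p = 0.00697 and 0.000247).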

How the data were processed

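CD4+ T cells were purified by negative magnetic selection. The study's methods also mention a later division into CD25+ and CD25- cells, and the labels give no such fraction for any library, so the values may describe either all CD4+ T cells or a part of them. Poly(A)-selected RNA from 12 mice was sequenced. Per the labels and the processing notes, base calls came from CASAVA 1.8 and reads were aligned with STAR to mm10; the counting program, its annotation and the use of strand are not given in the sources used here, so reads of overlapping genes could not be told apart. The authors deposited 1 table of FPKM values for 35275 Ensembl genes. In all 23230 genes above 0, the FPKM values were whole multiples of 1 fragment within 0.01, which gave the fragments per gene and the library totals (13563594 to 23642949, median 16828670). The lengths behind them equalled GENCODE M21 exon lengths for 27.5% of genes. For the others, all family genes above 0 among them, the smallest length that made the values of all 12 libraries whole was taken. In genes with few fragments that length can give too low a number. Summed over genes, the fragments came to 13563482 to 23642754 per library. A count of 0 was read as allowing up to 3 fragments, which takes in counting error and no other error.

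The main test was limma 3.58.1 (R 4.3.3; lmFit, eBayes with a trend) on log2(FPKM + 1), over the 13115 genes whose 12-mouse average reached 0.5 FPKM, with Benjamini-Hochberg adjustment over all of them and a threshold of 0.05. A fold change on this scale understates that of low genes. Each pairwise comparison was fitted to its 6 mice and the interaction to all 12. The members and lists were chosen with earlier results of these data known. The text names all PYHIN genes of the table, the 4 genes of each other list with the smallest p in a comparison (a single value is not reported here), and the tested genes next to the cluster; a rule for genes most like Ifi202b named none, since it was at 0 in all libraries. The fits were tested on simulated data. Replicate numbers recur across groups, but same-numbered mice of different groups deviated together with correlations from -0.161 to 0.266, so no pairing was assumed. Alternatives were another pseudocount, filter, scaling, variance model and tool (limma-voom on the fragments), a replicate block, and leaving out each mouse. Scaling to fragments outside immunoglobulin genes was chosen after seeing the data. Promoter windows were compared with Biopython 1.88.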

Additional observations from a re-analysis of the deposited data

Results flagged for a closer look

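The treatment effect on Ifi211 differed between the strains: the effect in SLE123 minus that in B6 was -1.30 on the log2(FPKM + 1) scale (limma interaction, adjusted p = 0.0179). The gene went from 0.0753 to 0.526 FPKM to 1.52 to 1.70 with treatment in B6, and from 5.53 to 9.38 to 4.75 to 6.33 in SLE123. Its low counterpart Ifi205, which shares 37.2% of the 100-base windows of Ifi211, had an interaction of -1.17 when all genes above 0 were tested (adjusted p = 0.0127), and Fcer1a beside the cluster had -1.87 (adjusted p = 0.0094). Ifi211, Ifi205 and Fcer1a were all nearly silent in untreated B6 mice, with little room to fall. These interactions are therefore a description and no support. Called lower in the interaction were also 7 of 9 myeloid, 5 of 6 erythroid and platelet, 4 of 5 NK cell, 4 of 7 B cell and 3 of 6 dendritic cell markers tested. Over all genes tested, 2.38% were called lower there. The part of RNA from these cells in these values was not tested.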

How the results depend on the processing

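The number of listed genes called between untreated strains was 3 without a filter on low values, beside 24.5% of all genes. Without that filter Ifi207 was tested as well. With 1 mouse left out the number was 3 to 7, beside 3672 to 6469 of 13115 genes. It was 3 without B6 untreated replicate 3, beside 3710 genes. Between treated strains it was 3 to 5 with 1 mouse left out, beside 5524 to 6685 of 13115 genes. In B6 treatment the number was 1 without a filter, beside 1134 of 23230 genes, and 0 with a replicate block. With 1 mouse left out it was 1 to 3, beside 675 to 1393 of 13115 genes. It was 1 without B6 untreated replicate 4, beside 675 genes. In SLE123 treatment it was 0 with any of the 6 mice left out, beside 1 to 7 of 13115 genes. For the interaction it was 2 with limma-voom and 0 with a replicate block, beside 517 and 34 of 13115 genes. With 1 mouse left out it was 0 to 5, beside 205 to 2917 genes. It was 0 without SLE123 anti-CD45RB replicate 3, beside 238 genes, and 5 without SLE123 untreated replicate 1, beside 2917. The mouse numbers share no known source, and the block left 0 of 13115 genes called in B6. Signs turned only for uncalled differences. With TPM these were Ifi203 (-0.10), Ifi213 (-0.057) and Mndal (-0.086) in treated strains, Mndal in B6 treatment (-0.0032) and Aim2 in SLE123 treatment (0.10). With quantile normalization they were Ifi203 (-0.056) and Mndal (-0.13) in treated strains and Mndal in B6 treatment (-0.041). Without immunoglobulin fragments, Mndal in untreated strains was at 0.076. With the block in B6, Ifi203 was at -0.017 and Mndal at -0.0084. With 1 mouse left out in B6, Ifi206 ranged from -0.072 to 0.024 and Mndal from -0.020 to 0.037. The cause was not tested. Over all genes, TPM turned the split of calls between untreated strains from 2990 higher and 2631 lower to 1912 and 5989. At 2 to 15 fragments per untreated B6 library, depth limits the folds of Ifi204 and Ifi211.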
